A study of Mus musculus with 6 samples.

Results

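The genes described here encode heat shock proteins and molecular chaperones. They were found by symbol in the authors' table of expressed genes: the Hsp families, the Dnaja, Dnajb and Dnajc families, the subunits Cct2 to Cct8, and Bag1 to Bag6. Hspg2, a basement membrane proteoglycan, and Hspbp1, a nucleotide exchange factor, were left out by the rule, which leaves 75 of the 12072 listed genes. Left ventricles came from mice aged 30 weeks that were kept on normal chow. CS-Mpc2-/- mice have lost Mpc2, a subunit of the mitochondrial pyruvate carrier, in the heart, and fl/fl mice carry the floxed Mpc2 gene. The promoter that drives the recombinase is not given in the sources used here. Each genotype had 6 mice, and RNA of 2 hearts was pooled per library, giving 3 CS-Mpc2-/- and 3 fl/fl libraries. Values are read coverage per 1000000 of the library total (ppm), a level that compares libraries and not genes of different length.

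Chaperones bind unfolded or partly folded proteins and prevent their aggregation or help them fold. Small heat shock proteins hold client proteins without ATP, while Hsp70 proteins cycle between client binding and release with ATP, stimulated by J-domain proteins (Dnaj) and by exchange factors such as Hsp110 and the BAG proteins. Hsp90 acts on late folding intermediates, CCT is a ring-shaped chaperonin for actin and tubulin, and the reticulum and the mitochondria have Hsp70, Hsp90 or Hsp60 members of their own. Under proteotoxic stress the factor Hsf1 binds heat shock elements in the promoters of inducible members, and the factor Atf6 binds ER stress elements in those of reticulum chaperones. In cardiac muscle, where filament proteins turn over under load, the small heat shock proteins are among the most abundant chaperones.

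Promoter windows from RefSeq (GRCm38.p6; 250 bases before to 50 after the start) were matched by symbol for 61 of the 75 genes. Hsp90aa1, Hsp90ab1, Hspa8, Hspa9, Hspb2, Hspa13, Dnajc2, Dnajc5, Dnajc11, Dnajc12, Dnajc18, Dnajc30, Cct4 and Bag4 were not among them. A heat shock element of 3 units was searched as GAANNTTC followed by NNGAA, on either strand. It was found in 4 of the 61 genes (Hsph1, Dnajb6, Hspd1 and Hspe1; 6.56%), against 0.662% of the 27025 genes with a window. The shorter forms GAANNTTC and TTCNNGAA, which overlap with the longer one, brought this to 19 genes (31.1%, against 17% of all genes). The ER stress element, CCAAT and CCACG with 9 bases of any kind between them, on either strand, was in Hspa5, Hsp90b1 and Dnajc3 (4.92%, against 0.137%). The windows below belong to the Hsp70 genes of chromosome 17, to a small heat shock protein and to the chaperones of mitochondria and reticulum that the results return to. They are written 5′ to 3′ with matches to the heat shock element, or for Hspa5 to the ER stress element, in capitals.
Hspa1b (chr17:34959189-34959488, minus strand): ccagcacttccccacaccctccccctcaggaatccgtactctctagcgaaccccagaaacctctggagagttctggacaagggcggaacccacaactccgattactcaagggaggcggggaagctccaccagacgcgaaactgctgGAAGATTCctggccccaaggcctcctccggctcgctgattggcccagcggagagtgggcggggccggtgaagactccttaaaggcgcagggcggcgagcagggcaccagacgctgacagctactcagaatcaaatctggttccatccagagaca
Hspa1a (chr17:34972107-34972406, minus strand): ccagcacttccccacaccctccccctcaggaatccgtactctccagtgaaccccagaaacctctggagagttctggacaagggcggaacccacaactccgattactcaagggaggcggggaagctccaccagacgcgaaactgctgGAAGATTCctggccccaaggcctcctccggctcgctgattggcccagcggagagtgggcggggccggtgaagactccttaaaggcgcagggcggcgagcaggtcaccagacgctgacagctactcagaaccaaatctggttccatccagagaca
Hspa1l (chr17:34972453-34972752, plus strand): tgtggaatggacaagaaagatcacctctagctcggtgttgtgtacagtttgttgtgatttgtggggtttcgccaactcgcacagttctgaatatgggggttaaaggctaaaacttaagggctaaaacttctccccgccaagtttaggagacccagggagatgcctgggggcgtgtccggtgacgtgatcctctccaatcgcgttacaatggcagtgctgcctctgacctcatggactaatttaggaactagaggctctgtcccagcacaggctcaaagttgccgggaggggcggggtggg
Hspb8 (chr5:116422815-116423114, minus strand): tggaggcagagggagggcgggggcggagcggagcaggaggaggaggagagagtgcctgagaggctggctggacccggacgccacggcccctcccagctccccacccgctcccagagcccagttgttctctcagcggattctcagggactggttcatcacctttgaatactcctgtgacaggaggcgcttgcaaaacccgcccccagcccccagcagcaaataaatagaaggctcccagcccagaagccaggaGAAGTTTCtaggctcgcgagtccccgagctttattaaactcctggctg
Hspe1 (chr1:55087898-55088197, plus strand): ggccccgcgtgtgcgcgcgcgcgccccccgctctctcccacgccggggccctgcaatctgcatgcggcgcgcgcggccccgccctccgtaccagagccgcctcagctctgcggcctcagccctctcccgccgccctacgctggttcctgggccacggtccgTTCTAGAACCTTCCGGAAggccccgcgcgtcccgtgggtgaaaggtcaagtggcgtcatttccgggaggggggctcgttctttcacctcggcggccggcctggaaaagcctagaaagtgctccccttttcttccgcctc
Hspa5 (chr2:34771840-34772139, plus strand): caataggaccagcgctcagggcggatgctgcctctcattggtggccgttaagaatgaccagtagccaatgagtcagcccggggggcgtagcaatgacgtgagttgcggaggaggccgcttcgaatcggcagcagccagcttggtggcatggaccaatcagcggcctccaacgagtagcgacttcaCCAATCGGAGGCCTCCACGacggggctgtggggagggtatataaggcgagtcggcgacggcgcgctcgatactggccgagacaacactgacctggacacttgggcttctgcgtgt
The Hspa1a and Hspa1b windows are identical at 296 of 300 bases, with the match at bases -104 to -97 from the start in both. The Hspa1l window holds no match, which says only that these letters are not in it. The match in the Hspb8 window lies 2 to 9 bases past the start. The capitals in the Hspe1 window also lie in that of Hspd1, which is transcribed in the opposite direction from there.

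Some libraries stood apart from their labels. Mpc2 coverage (replicates 1, 2 and 3) was 14.9, 18.2 and 46.3 ppm in CS-Mpc2-/-, against 45.2, 38.9 and 27.7 ppm in fl/fl, and was not low in the library labelled CS-Mpc2-/- replicate 3. On the first principal component (54.6% of variance) the library labelled fl/fl replicate 3 lay at 14.8, beside CS-Mpc2-/- at 18.1 to 30.8 and away from the other fl/fl libraries at -47.8 and -42.3. Group labels are used as given, and whether libraries or pools were exchanged or mixed was not tested. Results are given with all 6 libraries and without fl/fl replicate 3, and for the counts also without replicate 3 of both groups. The choice of fl/fl replicate 3 came from its position in these same data. Leaving out the fl/fl library nearest to CS-Mpc2-/- tends to widen differences and to narrow the fl/fl spread. Adjusted p-values of fits without it are therefore likely too small and are given as description. Depth, counted in 1000000 coverage steps, was 278 to 319 in CS-Mpc2-/-, against 92.9, 202 and 389 in the fl/fl libraries. Every chaperone gene had coverage above the smallest step in every library. Ventricular cardiomyocyte markers (8 of 8 measured) summed to 77122, 77491 and 67696 ppm in CS-Mpc2-/- libraries, against 120415, 106182 and 68269.5 ppm in fl/fl. Much of this was Myh6, at 37521.5, 40319 and 33936 ppm in CS-Mpc2-/- and 65413, 66012 and 30974 ppm in fl/fl. Of the 8 markers 7 had a negative log2 difference, while that of Myl3 was 0.43 without overlap. Fibroblast markers (7 of 7) summed to 4587, 1632 and 1659 ppm in CS-Mpc2-/-, against 991, 853 and 1304 ppm in fl/fl. Much of this was Col3a1, at 2795, 601 and 647 ppm in CS-Mpc2-/- and 406, 275 and 425 ppm in fl/fl. Of the 7 markers 6 had a positive log2 difference, while that of Dpt was -0.35, and Pdgfra and Lum overlapped between groups. None of these markers was at the smallest step, and their part in the results below was not tested. In such bulk samples fewer cells of a type and less RNA per cell cannot be told apart. The atrial markers Myl7, Myl4 and Sln were not found by symbol among the listed genes.

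With all 6 libraries 0 chaperone genes passed an adjusted p of 0.05 in either direction (limma, Benjamini-Hochberg over all 12072 genes, of which 0% passed). At an unadjusted p under 0.05 there were 8 higher and 2 lower, or 10.7% and 2.67% of the 75, against 8.08% and 5.43% of all genes. The 3 CS-Mpc2-/- values lay wholly above the fl/fl values for 7 chaperone genes and wholly below for 4, which is 9.33% and 5.33%, against 8.01% and 6.48% of all genes. Without fl/fl replicate 3 limma called 7 higher and 1 lower (9.33% and 1.33%, against 6.51% and 4.4% of all genes), and without replicate 3 of both groups 7 and 3, against 7.24% and 5.3%. The 10 called without replicate 3 of both groups included all 8 called without fl/fl replicate 3. Leaving out fl/fl replicate 3 and CS-Mpc2-/- replicate 1 together gave 3 higher (Hspa1l, Hsp90aa1 and Hspa1b) and 0 lower, or 4% and 0%, against 2.94% and 1.91% of all genes. With each library's trend on transcript length removed, and fl/fl replicate 3 left out, 5 were higher and 3 lower (6.67% and 4%, against 5.52% and 4.98%). Both of these settings were added after the data were seen. As a set the chaperones were near the background, and what follows concerns single members. The median log2 difference was 0.12 over the 75 genes, with 62.7% positive and 37.3% negative (54.4% and 45.6% of all genes), and 0.041 over all listed genes. Summed over the 75 genes, coverage was 0.931%, 0.876% and 0.870% of the total in CS-Mpc2-/- libraries, against 0.807%, 0.803% and 0.856% in fl/fl.

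The highest chaperone values in CS-Mpc2-/- relative to fl/fl belonged to the cytosolic Hsp70 genes on chromosome 17 and to the inducible Hsp90. Hspa1l, an Hsp70 otherwise known from testis, lies at 34972703 to 34979285 of mm10 on the plus strand, head to head with Hspa1a. It had 42.2, 36.6 and 35.0 ppm in CS-Mpc2-/- libraries, against 4.43, 12.5 and 23.5 ppm in fl/fl libraries. The groups did not overlap, and the lowest library, fl/fl replicate 1, rested on 411 coverage steps over a transcript of 2472 nt. The mean was 37.9 ± 3.80 ppm in CS-Mpc2-/- and 13.5 ± 9.60 ppm in fl/fl (SD, n = 3 each). The log2 difference was 1.67 ± 0.42 (SE) with all 6 libraries (limma adjusted p = 0.220). Hspa1l rose by 2.18 ± 0.33 without fl/fl replicate 3 (limma adjusted p = 0.00100). Of the 50-nt words of its transcript 9.57% also occur in that of Hspa1a and 7.72% in that of Hspa1b, so some coverage may be shared. Hspa1l also overlaps the antisense gene Gm10501 in exons, and the strand setting of the coverage is not given.

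Hspa1b and Hspa1a encode the stress-inducible Hsp70 protein and lie on the minus strand at 34956436 to 34959238 and 34969190 to 34972156 of chromosome 17, each with 1 exon. Hspa1b had 98.8, 20.1 and 19.7 ppm in CS-Mpc2-/- libraries, against 7.17, 5.43 and 22.5 ppm in fl/fl libraries. Hspa1a had 88.9, 16.2 and 18.2 ppm in CS-Mpc2-/-, against 8.27, 7.99 and 22.5 ppm in fl/fl. CS-Mpc2-/- replicate 1 was far above every other library for both genes, and fl/fl replicate 3 lay above CS-Mpc2-/- replicates 2 and 3, so the groups overlapped. Of the 50-nt words of the Hspa1b transcript 62.3% also occur in that of Hspa1a, so coverage may be split between the copies. Their sum, which does not depend on that split, was 188, 36.4 and 37.9 ppm in CS-Mpc2-/-, against 15.4, 13.4 and 45.0 ppm in fl/fl.

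The log2 difference with all 6 libraries was 1.71 ± 0.58 (SE) for Hspa1b and 1.31 ± 0.55 for Hspa1a (limma adjusted p = 0.269 and 0.336). Without CS-Mpc2-/- replicate 1 these were 0.96 and 0.54. On leaving out fl/fl replicate 3 Hspa1b rose by 2.28 ± 0.51 and Hspa1a by 1.76 ± 0.52 (limma adjusted p = 0.0123 and 0.0429). With CS-Mpc2-/- replicate 1 left out as well, a choice made after the data were seen, Hspa1b rose by 1.53 (adjusted p = 0.0234 in limma), while Hspa1a did not pass (adjusted p = 0.105 in limma). Immediate early genes also respond to handling of tissue. Of the 11 measured of 12 listed, 0 passed with all 6 libraries, and 10 had a positive log2 difference (54.4% of all genes). Without fl/fl replicate 3 limma called 4 higher and 0 lower, against 6.51% and 4.4% of all genes. The 11 immediate early genes summed to 605, 448 and 360.3 ppm in CS-Mpc2-/-, against 269.6, 279.8 and 349 ppm in fl/fl. Egr2 was at 1 coverage step in fl/fl replicates 1 and 2. Their part in the Hsp70 result was not tested.

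Hsp90aa1, the inducible cytosolic Hsp90 on chromosome 12 (110690605 to 110702728, minus strand), had 100.1, 74.2 and 88.7 ppm in CS-Mpc2-/- libraries, against 36.0, 35.4 and 71.5 ppm in fl/fl libraries. The groups did not overlap, and fl/fl replicate 3 lay just under the lowest CS-Mpc2-/- library. The mean was 87.6 ± 13.0 ppm in CS-Mpc2-/- and 47.6 ± 20.7 ppm in fl/fl (SD, n = 3 each). The log2 difference was 0.93 ± 0.26 (SE; limma adjusted p = 0.220). The gene rose without fl/fl replicate 3 by 1.26 ± 0.19 (limma adjusted p = 0.00119), and by 1.16 with CS-Mpc2-/- replicate 1 left out too (adjusted p = 0.0108 in limma). The constitutive partner Hsp90ab1 had 399, 394 and 435 ppm in CS-Mpc2-/-, against 493, 486 and 423 ppm in fl/fl, with overlapping groups and a log2 difference of -0.19 ± 0.16 (SE).

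The ratio of Hsp90aa1 to Hsp90ab1 coverage, chosen after the values were seen, was 0.251, 0.188 and 0.204 in CS-Mpc2-/- libraries, against 0.0729, 0.0728 and 0.169 in fl/fl. Every CS-Mpc2-/- library was above every fl/fl library. The transcripts share 0 words of 50 nt, so coverage of this length is not split between them, and a ratio within a library does not depend on how libraries are scaled. Not every ratio formed in this way separated the groups. That of Hspa1a plus Hspa1b to Hspa8 was 0.242, 0.0613 and 0.0526 in CS-Mpc2-/-, against 0.0274, 0.0272 and 0.0751 in fl/fl. That of Hspb2 to Cryab was 0.109, 0.152 and 0.160 in CS-Mpc2-/-, against 0.0786, 0.105 and 0.145 in fl/fl. Both overlapped between groups.

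**Figure D1:**
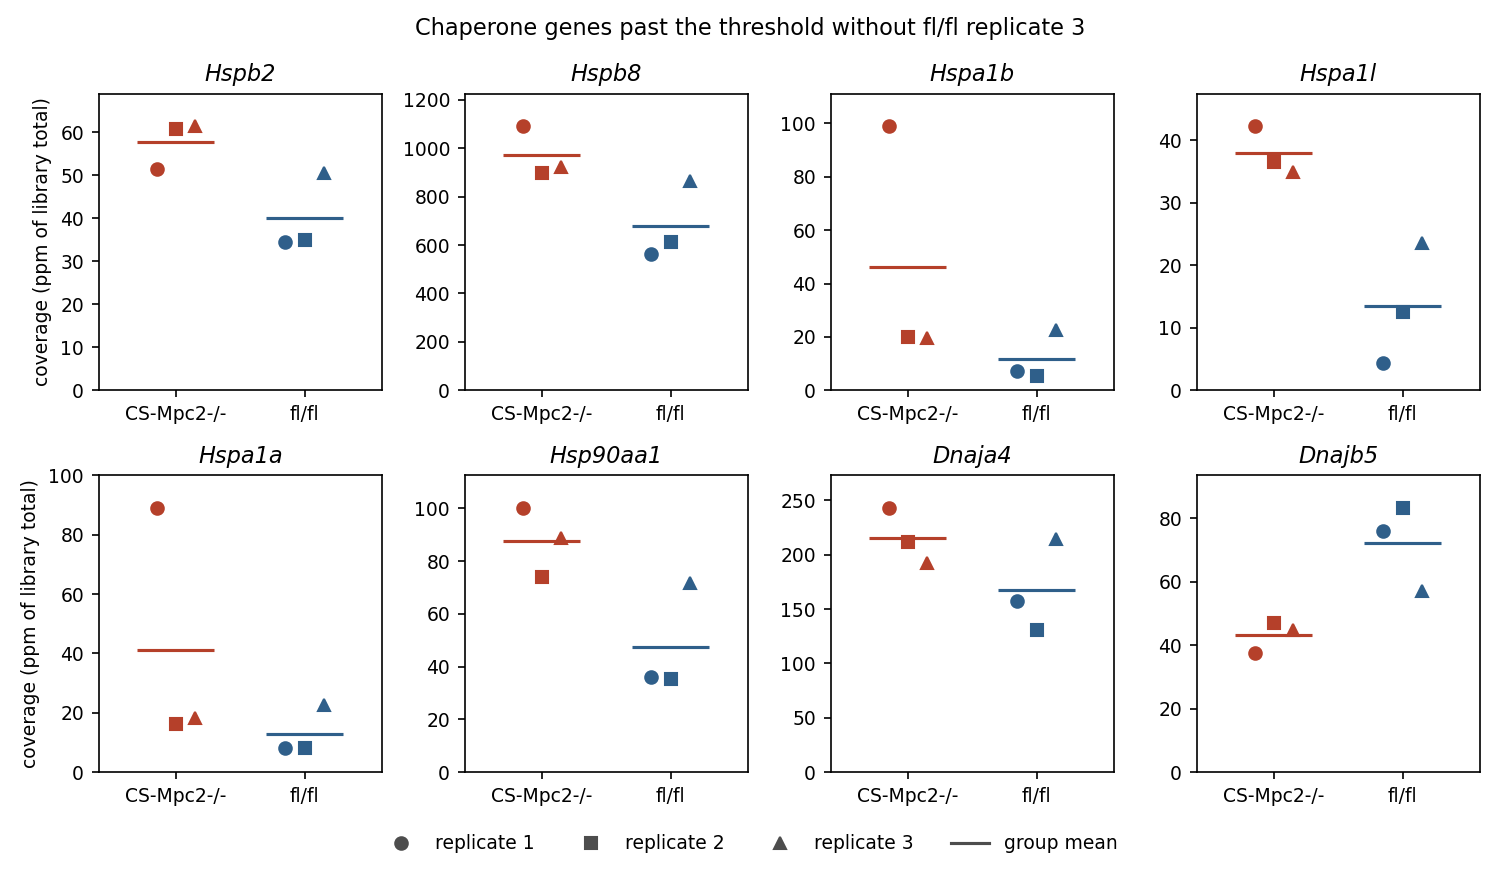
Coverage in ppm of the library total (vertical axes, linear from 0) of the 8 chaperone genes past the adjusted threshold without fl/fl replicate 3, in CS-Mpc2-/- (left) and fl/fl libraries (right). Points are libraries, marked by replicate number, and lines are group means of 3 libraries. In every panel fl/fl replicate 3 (triangle) is the fl/fl library closest to the CS-Mpc2-/- mean. The genes were picked by a fit that leaves this library out, which favours such a position. CS-Mpc2-/- replicate 1 (circle) is far above the rest for Hspa1b and Hspa1a.

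The other cytosolic Hsp70, Hsp90 and Hsp110 genes differed less. Hspa8, the constitutive Hsc70, had 777, 593 and 721 ppm in CS-Mpc2-/-, against 564, 494 and 599 ppm in fl/fl, with CS-Mpc2-/- replicate 2 within the fl/fl range. Its log2 difference was 0.33 ± 0.17 (SE; limma adjusted p = 0.427). Hspa14, a ribosome-associated Hsp70, had 49.8, 42.8 and 34.7 ppm in CS-Mpc2-/- and 34.8, 25.6 and 31.0 ppm in fl/fl, a log2 difference of 0.46 ± 0.21 that did not pass (limma adjusted p = 0.365). Hspa12a, a distant Hsp70 relative, was below every fl/fl library in each CS-Mpc2-/- library, at 39.0, 35.7 and 39.7 ppm in CS-Mpc2-/- against 43.8, 53.7 and 40.1 ppm in fl/fl (log2 difference -0.25 ± 0.19, limma adjusted p = 0.575). Hsph1, the inducible Hsp110, was highest in CS-Mpc2-/- replicate 1, with 87.9, 31.8 and 50.3 ppm in CS-Mpc2-/- and 48.6, 31.4 and 33.8 ppm in fl/fl. Hspa12b, Hspa2, Hspa4 and Hspa4l had log2 differences of -0.16 to 0.32 with overlapping groups. Over the 13 genes of this class the median log2 difference was 0.33 (0.48 without fl/fl replicate 3), with 9 positive, and 4 were called higher and 0 lower without fl/fl replicate 3 (6.51% and 4.4% of all genes). The median was 0.53 without replicate 3 of both groups.

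Of the small heat shock proteins, Hspb8 and Hspb2 had the largest differences, and the other 4 had log2 differences of 0.04 to 0.13. Hspb8, which works with Bag3 in the selective removal of damaged filament proteins, lies on chromosome 5 at 116408491 to 116422864 (minus strand, 3 exons). It had 1089, 897 and 923 ppm in CS-Mpc2-/- libraries, against 562, 614 and 864 ppm in fl/fl libraries. The groups did not overlap, and fl/fl replicate 3 was near the lowest CS-Mpc2-/- library. The mean was 969.7 ± 104 ppm in CS-Mpc2-/- and 679.9 ± 161 ppm in fl/fl (SD, n = 3 each), and the log2 difference 0.53 ± 0.20 (SE; limma adjusted p = 0.293). It rose by 0.72 ± 0.17 without fl/fl replicate 3 (limma adjusted p = 0.0150) and did not pass with CS-Mpc2-/- replicate 1 left out too (0.63, limma adjusted p = 0.0667).

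Hspb2, a muscle small heat shock protein on chromosome 9 (50751078 to 50752354), had 51.5, 60.7 and 61.4 ppm in CS-Mpc2-/-, against 34.6, 34.9 and 50.7 ppm in fl/fl, again with fl/fl replicate 3 nearest the CS-Mpc2-/- values. The log2 difference was 0.54 ± 0.20 (SE; limma adjusted p = 0.295), and without fl/fl replicate 3 the gene rose by 0.72 ± 0.20 (limma adjusted p = 0.0315). Its transcript is short, at 773 nt, and the 365 listed genes in its bin of transcript length had a median log2 difference of 0.22. With each library's trend on transcript length removed the difference was 0.32, and without fl/fl replicate 3 as well it was 0.44 and did not pass (limma adjusted p = 0.172). It did not pass with CS-Mpc2-/- replicate 1 left out in place of the length trend either (0.80, limma adjusted p = 0.0617). Hspb2 also overlaps the antisense gene Cryab in exons, and the strand setting of the coverage is not given. Cryab, the alpha-B crystallin, had 473, 399 and 384 ppm in CS-Mpc2-/- and 439.8, 333 and 351 ppm in fl/fl, with overlapping groups.

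Hspb7, a cardiac small heat shock protein that binds filamin C, had 1649.6, 2164 and 1365 ppm in CS-Mpc2-/- libraries, against 1485, 1695 and 1796 ppm in fl/fl. Its groups overlapped and its log2 difference was 0.036 ± 0.21 (SE), with a sign that changed between scalings. Per kb of the longest coding transcript Hspb7 and Hspb8 had the highest mean coverage of the 75 genes (611 and 454 ppm per kb), ahead of Hspa8 (261), Hsp90ab1 (174) and Hspb6 (168). Hspb1, the inducible Hsp27 homologue, had 42.6, 44.4 and 26.7 ppm in CS-Mpc2-/- and 47.5, 34.1 and 27.0 ppm in fl/fl, and Hspb6, a substrate of protein kinase A in the heart, had 282, 212 and 227 ppm in CS-Mpc2-/- and 203, 242 and 211 ppm in fl/fl. The high Hspa1b and Hspa1a values of CS-Mpc2-/- replicate 1 thus had no counterpart in Hspb1. Hsph1, Dnajb1 and Dnaja1 were in contrast also highest in that library. Dnaja1 was at 28.4 ppm there, against 14.0 to 22.5 ppm in the others.

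Among the 18 cytosolic and nuclear J-proteins, Dnajb5 was the member called lower without fl/fl replicate 3 and Dnaja4 the member called higher. Dnajb5, an Hsp40 that in cardiac muscle binds the deacetylase Hdac4, lies on chromosome 4 at 42949814 to 42959425 (plus strand, 4 exons). It had 37.6, 46.9 and 44.9 ppm in CS-Mpc2-/- libraries, against 76.1, 83.1 and 57.0 ppm in fl/fl libraries, without overlap. The mean was 43.1 ± 4.91 ppm in CS-Mpc2-/- and 72.1 ± 13.5 ppm in fl/fl (SD, n = 3 each), and the log2 difference -0.72 ± 0.20 (SE; limma adjusted p = 0.220). It fell without fl/fl replicate 3, with a log2 difference of -0.87 ± 0.19 (limma adjusted p = 0.0117). With CS-Mpc2-/- replicate 1 left out too it did not pass (log2 difference -0.78, limma adjusted p = 0.0549).

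Dnaja4, a co-chaperone of Hsp70 on chromosome 9 (54698873 to 54716315, plus strand), had 243, 212 and 193 ppm in CS-Mpc2-/-, against 158, 131 and 215 ppm in fl/fl. The groups overlapped, since fl/fl replicate 3 lay above CS-Mpc2-/- replicates 2 and 3. Its log2 difference was 0.38 ± 0.20 (SE; limma adjusted p = 0.424), and without fl/fl replicate 3 it rose by 0.57 ± 0.17 (limma adjusted p = 0.0491). It did not pass there with the length trend removed or with CS-Mpc2-/- replicate 1 left out (limma adjusted p = 0.0664 and 0.173). It overlaps the antisense gene Wdr61. Dnaja2, another Hsp70 co-chaperone, was higher in each CS-Mpc2-/- library than in any fl/fl library, at 213, 213 and 218 ppm in CS-Mpc2-/- against 167, 187 and 202 ppm in fl/fl, but its log2 difference of 0.21 ± 0.16 did not pass (limma adjusted p = 0.566). Dnajb1, the classic inducible Hsp40, had 37.8, 16.6 and 17.7 ppm in CS-Mpc2-/- and 24.6, 15.5 and 21.8 ppm in fl/fl, with only CS-Mpc2-/- replicate 1 high. The other 14 J-proteins, from -0.15 for Dnajc13 to 0.38 for Dnaja1, had overlapping groups. The 18 genes had a median log2 difference of 0.088, with 12 positive.

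The CCT chaperonin and the BAG co-chaperones had 0 members called in either direction with all 6 libraries or without fl/fl replicate 3 (limma), and 0 at an unadjusted p under 0.05. The 7 CCT subunits had a median log2 difference of 0.23, with 5 positive, and of 0.11 without CS-Mpc2-/- replicate 3 or 0.15 without fl/fl replicate 2. Cct5 had 154, 120.5 and 151 ppm in CS-Mpc2-/- and 108, 78.8 and 138 ppm in fl/fl, a log2 difference of 0.41 ± 0.21 (SE). Cct7 had 153, 133 and 146 ppm in CS-Mpc2-/- and 131, 137 and 134 ppm in fl/fl, a log2 difference of 0.098 ± 0.15. Cct8 was the subunit without overlap, at 32.9, 31.7 and 40.2 ppm in CS-Mpc2-/- against 30.1, 27.0 and 29.1 ppm in fl/fl (log2 difference 0.27 ± 0.19, limma adjusted p = 0.558). Subunits of the same ring differed in sign, down to -0.21 for Cct2, with SE of 0.15 to 0.21. The 6 BAG genes had a median log2 difference of 0.042. Bag6, which sorts membrane and misfolded proteins, had 207, 227 and 166 ppm in CS-Mpc2-/- and 227, 229 and 200.5 ppm in fl/fl, and Bag1, an Hsp70 exchange factor, had 111, 99.6 and 98.9 ppm in CS-Mpc2-/- and 119, 107 and 100.4 ppm in fl/fl. Bag2, Bag4 and Bag5 had log2 differences of 0.16 to 0.41 with overlapping groups. Bag3, the partner of Hspb8, was slightly below every fl/fl library in each CS-Mpc2-/- library, at 88.0, 95.4 and 89.2 ppm in CS-Mpc2-/- against 97.4, 105 and 98.7 ppm in fl/fl (log2 difference -0.14 ± 0.16, limma adjusted p = 0.717).

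The ratio of Hspb8 to Bag3 coverage, chosen after the values were seen, was 12.4, 9.40 and 10.3 in CS-Mpc2-/- libraries, against 5.76, 5.87 and 8.75 in fl/fl. Each CS-Mpc2-/- library was above each fl/fl library, and fl/fl replicate 3 was the highest of its group. This separation follows from the values of the single genes, since Hspb8 lay wholly above and Bag3 wholly below fl/fl. It is therefore no further result.

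Of the reticulum chaperones limma called 0 with all 6 libraries or without fl/fl replicate 3. At an unadjusted p under 0.05 (all 6 libraries) 1 was higher and 0 lower, against 8.08% and 5.43% of all genes. Hspa5 (BiP), the Hsp70 of the reticulum and the classic target of the unfolded protein response, had 423, 346 and 493 ppm in CS-Mpc2-/-, against 446, 499.7 and 434 ppm in fl/fl. Hsp90b1 (Grp94), the Hsp90 of the reticulum, had 400.0, 288 and 383 ppm in CS-Mpc2-/-, against 419.7, 336 and 322 ppm in fl/fl. The groups overlapped for both genes, whose log2 differences were -0.14 ± 0.18 and -0.014 ± 0.18 (SE). Dnajc10, a disulfide reductase with a J domain, was higher in each CS-Mpc2-/- library than in any fl/fl library, at 72.1, 72.0 and 80.2 ppm in CS-Mpc2-/- against 60.8, 42.1 and 63.8 ppm in fl/fl (log2 difference 0.44 ± 0.19, limma adjusted p = 0.356). Dnajb12, a J-protein of the reticulum membrane, had 31.5, 32.1 and 18.9 ppm in CS-Mpc2-/- and 71.6, 38.4 and 26.3 ppm in fl/fl, where fl/fl replicate 1 was the highest library (log2 difference -0.62 ± 0.33, limma adjusted p = 0.427). It fell in the fit without fl/fl replicate 3 and with the length trend removed (-0.99, limma adjusted p = 0.0422), and did not pass without fl/fl replicate 3 alone (0.0512). Dnajc3 (p58IPK), the gene besides Hspa5 and Hsp90b1 with an ER stress element match, had 98.5, 81.3 and 115 ppm in CS-Mpc2-/- and 61.7, 75.9 and 93.9 ppm in fl/fl, with overlap (log2 difference 0.35 ± 0.20). The remaining members, from -0.16 for Dnajc25 to 0.58 for Dnajb14, had overlapping groups. The 14 genes had a median log2 difference of 0.17, and of -0.014 without CS-Mpc2-/- replicate 3.

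Of the 9 mitochondrial chaperones 6 had a negative log2 difference, and 0 were called by limma with all 6 libraries or without fl/fl replicate 3. At an unadjusted p under 0.05 (all 6 libraries) 0 were higher and 1 lower, against 8.08% and 5.43% of all genes. Hspa9 (mortalin), the mitochondrial Hsp70 that pulls precursors through the import channel, had 448, 422 and 525 ppm in CS-Mpc2-/-, against 501, 434 and 458 ppm in fl/fl, a log2 difference of -0.0014 ± 0.16 (SE). Hspd1 (Hsp60), the chaperonin of the matrix, had 60.2, 53.3 and 88.7 ppm in CS-Mpc2-/-, against 95.1, 101 and 74.9 ppm in fl/fl. Its groups overlapped through CS-Mpc2-/- replicate 3, and the log2 difference was -0.44 ± 0.21 (SE; limma adjusted p = 0.395). Without replicate 3 of both groups Hspd1 fell, with a log2 difference of -0.78 (limma adjusted p = 0.0105). Dnaja3 (Tid1), a J-protein partner of Hspa9, fell in the same fit (-0.62, limma adjusted p = 0.0454), and had 50.3, 57.9 and 55.8 ppm in CS-Mpc2-/- and 76.0, 91.3 and 46.4 ppm in fl/fl. It overlaps the listed genes Vasn and Coro7.

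Hspe1 (Hsp10), the lid of the Hsp60 chaperonin, had 12.2, 14.6 and 29.4 ppm in CS-Mpc2-/-, against 14.1, 9.56 and 14.1 ppm in fl/fl. Its log2 difference was 0.46 ± 0.32 (SE), of opposite sign to that of Hspd1, with which it shares the promoter region printed above. The ratio of Hspe1 to Hspd1 coverage, chosen after the values were seen, was 0.203, 0.274 and 0.332 in CS-Mpc2-/- libraries, against 0.148, 0.0947 and 0.188 in fl/fl. Every CS-Mpc2-/- library was higher. The Hspe1 transcript has 774 nt and that of Hspd1 2423 nt, and the log2 difference was 0.25 for Hspe1 and -0.48 for Hspd1 with the length trend removed. The genes with a heat shock element of 3 units, Hspe1, Hspd1, Hsph1 and Dnajb6, had log2 differences of both signs (0.46, -0.44, 0.47 and -0.018). Of these 0 passed with all 6 libraries or without fl/fl replicate 3. Of the 15 genes with the shorter form GAANNTTC, Hspa1a, Hspa1b, Hspb8 and Dnaja4 were called higher without fl/fl replicate 3, and the rest were not called. Of the other called genes, Hspa1l and Dnajb5 had no match, and Hsp90aa1 and Hspb2 had no window. A link between matches and levels was not tested. Hspe1 and Hspd1 overlap in exons on opposite strands, and GENCODE names 6 pseudogenes after Hspe1 and 5 after Hspd1, so their levels are uncertain. Dnajc30, a small mitochondrial J-protein, was below every fl/fl library in each CS-Mpc2-/- library, at 17.5, 14.9 and 15.9 ppm in CS-Mpc2-/- against 21.1, 23.0 and 23.3 ppm in fl/fl (log2 difference -0.46 ± 0.21, limma adjusted p = 0.364). Dnajc30 overlaps the antisense gene Bud23 in exons, and the strand setting of the coverage is not given. Dnajc28 had 41.9, 28.5 and 54.9 ppm in CS-Mpc2-/- and 48.3, 67.8 and 44.0 ppm in fl/fl, with overlap. Dnajc11, Dnajc15 and Dnajc19 had log2 differences of -0.067, 0.37 and 0.23 with overlapping groups. The unplaced genes Dnajc4 and Hspbap1 had log2 differences of 0.0062 ± 0.28 and -0.016 ± 0.31 (SE).

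**Figure D2:**
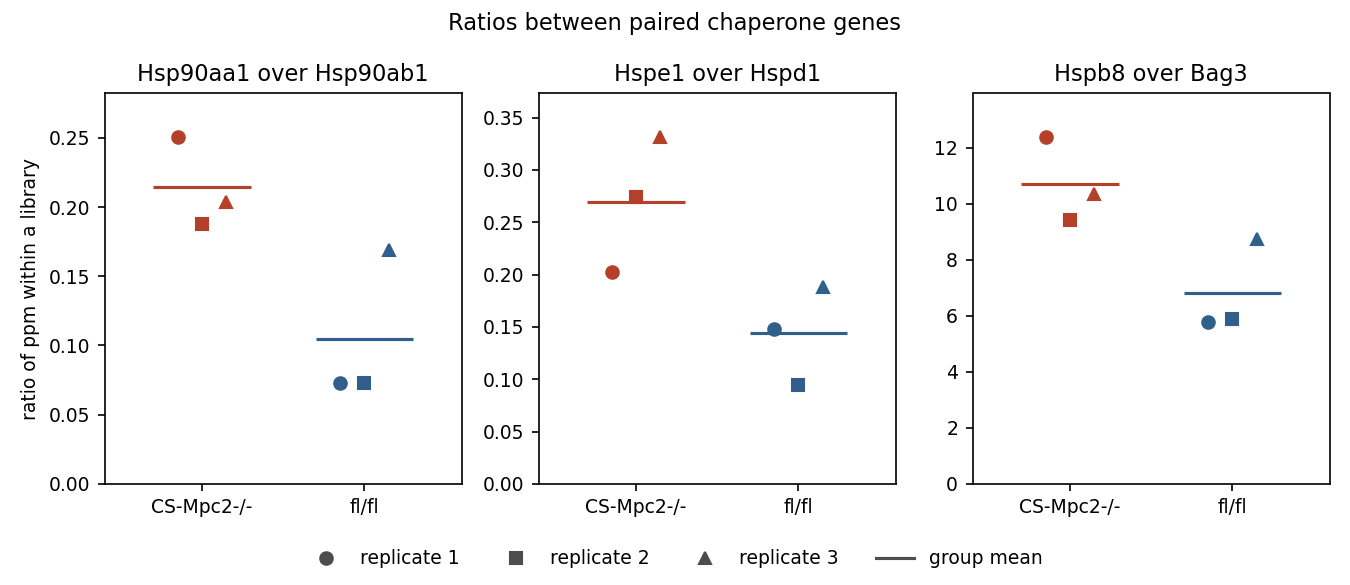
Ratio of ppm within each library (vertical axes, linear from 0) for Hsp90aa1 over Hsp90ab1, Hspe1 over Hspd1 and Hspb8 over Bag3, in CS-Mpc2-/- (left) and fl/fl (right); points are libraries and lines are means of 3. The CS-Mpc2-/- points lie above all fl/fl points in each panel, with fl/fl replicate 3 the highest of the fl/fl libraries. For Hspb8 over Bag3 this follows from the separation of each gene alone. The ratios of Hspa1a plus Hspa1b to Hspa8 and of Hspb2 to Cryab overlapped between groups and are not drawn.

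Set side by side, the class medians of the log2 difference with all 6 libraries were 0.097 for small heat shock proteins, 0.33 for cytosolic Hsp70, Hsp90 and Hsp110, 0.17 for the reticulum and -0.067 for mitochondria. Leaving out fl/fl replicate 3 gave 0.14, 0.48, 0.27 and -0.11 in the same order. The median of small heat shock proteins was 0.24 without CS-Mpc2-/- replicate 3, 0.031 without CS-Mpc2-/- replicate 1 and -0.00060 with the length trend removed. That of mitochondrial chaperones was 0.017 without fl/fl replicate 1 and -0.20 when genes averaging under 5 ppm were dropped. The difference between classes was not tested. Summed coverage of the cytosolic Hsp70, Hsp90 and Hsp110 genes was 2029, 1549 and 1772 ppm in CS-Mpc2-/- libraries, against 1580.2, 1452 and 1613 ppm in fl/fl. Mitochondrial chaperones summed to 715, 674 and 858 ppm in CS-Mpc2-/-, against 833, 801 and 739 ppm in fl/fl, with the highest sum in CS-Mpc2-/- replicate 3, the library in which Mpc2 was not low. That library also had the highest sums of the reticulum (1438 ppm) and CCT (628 ppm) classes, and a link with Mpc2 was not tested. Relative to each gene's mean over all libraries, the median of the mitochondrial class was -0.12, -0.13 and 0.18 in CS-Mpc2-/- replicates 1, 2 and 3, against 0.13, -0.056 and -0.046 in fl/fl replicates 1, 2 and 3 on the log2 scale. For the cytosolic Hsp70, Hsp90 and Hsp110 class it was 0.33, -0.059 and 0.095 in CS-Mpc2-/-, against -0.13, -0.41 and 0.14 in fl/fl. The libraries of the groups overlapped in both classes.

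**Figure D3:**
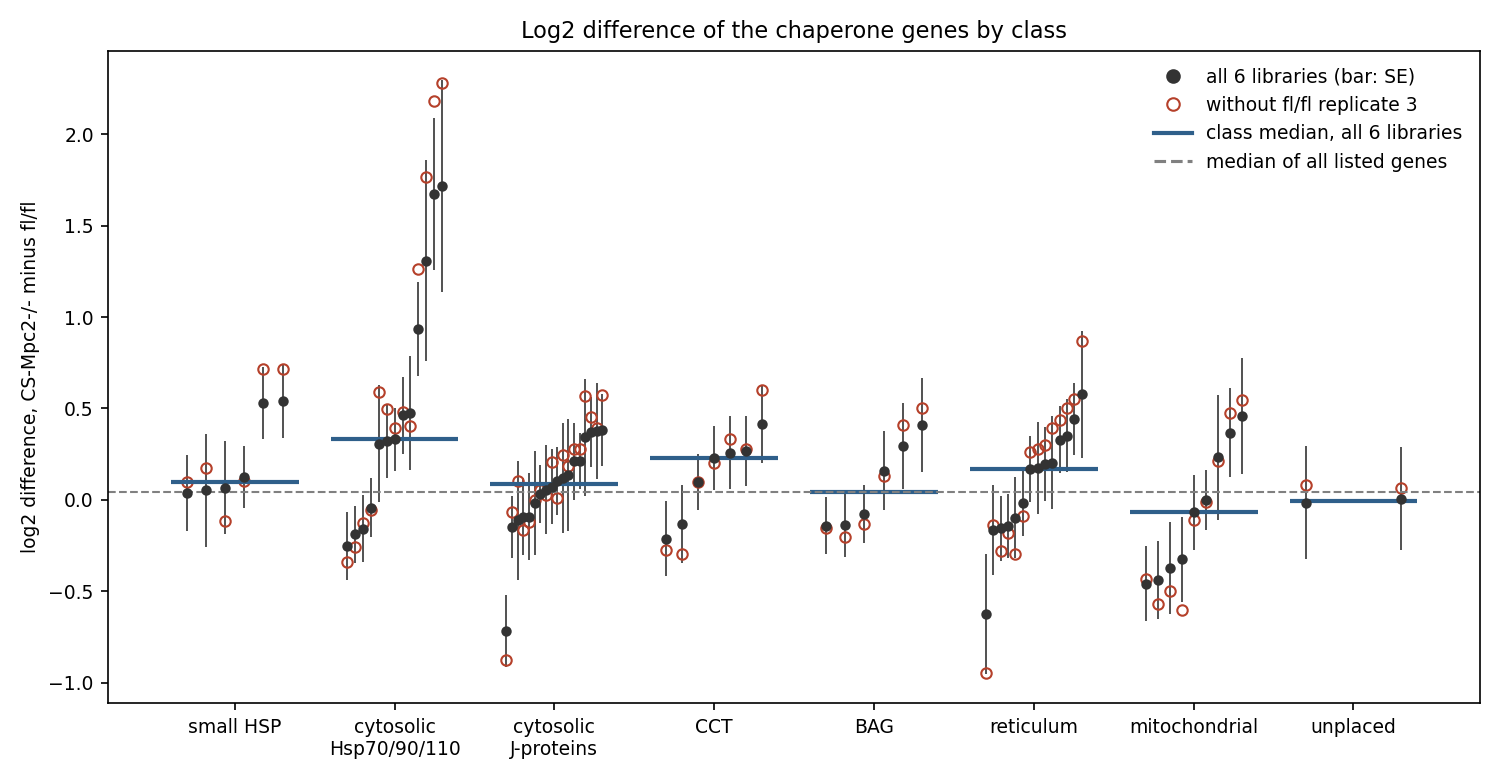
Log2 difference, CS-Mpc2-/- minus fl/fl (vertical axis), of the 75 chaperone genes grouped by class; filled points with SE bars are from all 6 libraries, open circles from the fit without fl/fl replicate 3, blue lines are class medians and the dashed line is the median of all 12072 genes (0.04). The points furthest above the line are Hspa1b, Hspa1l, Hspa1a and Hsp90aa1, and the furthest below are Dnajb5 and Dnajb12.

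**Figure D4:**
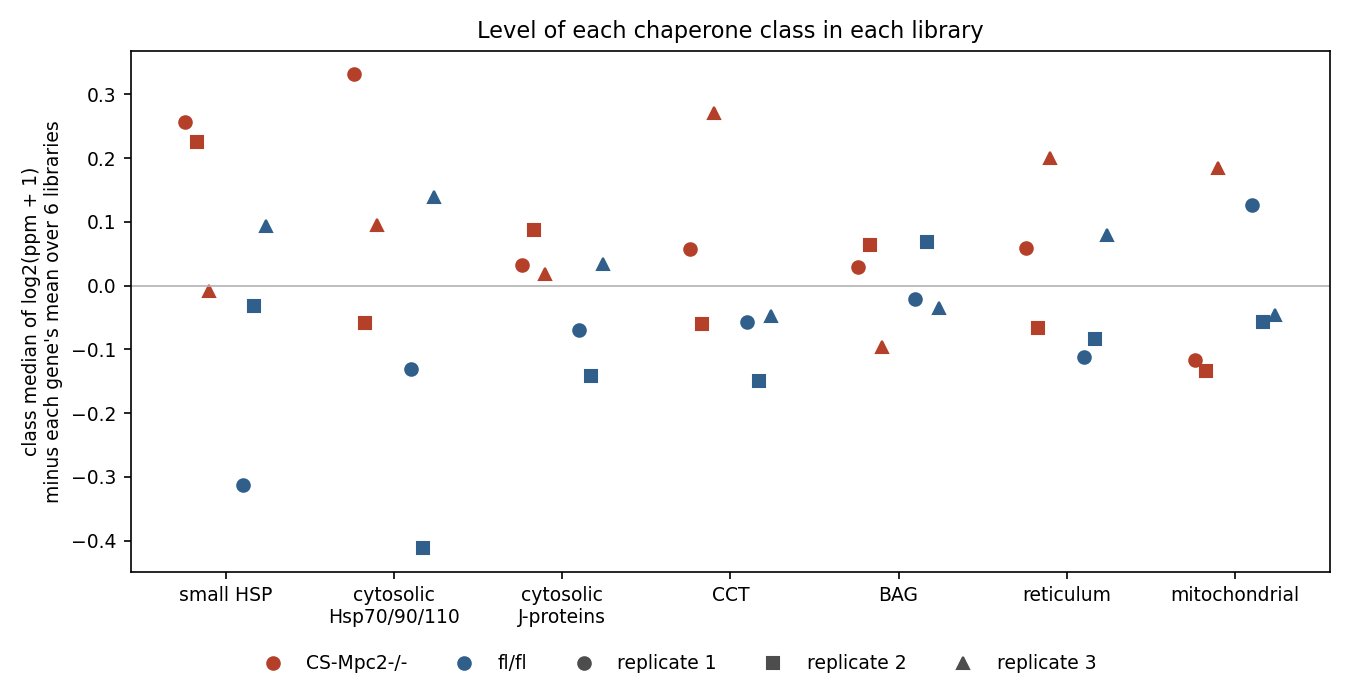
Median over the genes of each class of log2(ppm + 1) minus the gene's mean over the 6 libraries (vertical axis), with CS-Mpc2-/- libraries in red on the left and fl/fl libraries in blue on the right of each class, marked by replicate number. The groups overlap in every class, and CS-Mpc2-/- replicate 3 (red triangle) is the highest library in the CCT, reticulum and mitochondrial classes.

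Related genes outside the 75 gave 0 called in either direction with all 6 libraries (limma). At an unadjusted p under 0.05 there were 1 higher and 1 lower in the cytosolic list, 3 and 1 in the reticulum list and 2 and 0 in the mitochondrial list, against 8.08% and 5.43% of all genes. Of 30 measured heat shock factors and cytosolic co-chaperones 1 was called higher and 0 lower without fl/fl replicate 3, against 6.51% and 4.4% of all genes. This was Pfdn1, a prefoldin subunit that hands actin and tubulin to CCT, with 63.6, 63.0 and 51.0 ppm in CS-Mpc2-/-, against 32.6, 22.2 and 41.9 ppm in fl/fl (log2 difference 1.10 without fl/fl replicate 3, limma adjusted p = 0.00702). Hsf1, the heat shock factor itself, had 10.8, 11.8 and 7.43 ppm in CS-Mpc2-/-, against 22.5, 12.8 and 9.83 ppm in fl/fl, with overlap (log2 difference -0.49 ± 0.31). Fkbp4, an Hsp90 co-chaperone, had log2 difference -0.50 ± 0.23, and Stip1, which links Hsp70 to Hsp90, had 0.42 ± 0.20; neither passed.

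Of 26 measured reticulum folding and unfolded protein response genes 2 were called higher and 1 lower without fl/fl replicate 3, against 6.51% and 4.4% of all genes. P4hb, a protein disulfide isomerase and prolyl hydroxylase subunit, had 368, 399.7 and 323 ppm in CS-Mpc2-/-, against 202, 214 and 333 ppm in fl/fl (log2 difference 0.80 in that fit, limma adjusted p = 0.00776). P4hb overlapped between groups through fl/fl replicate 3. Edem1, a lectin of reticulum-associated degradation, had 25.4, 17.9 and 24.0 ppm in CS-Mpc2-/- and 7.77, 11.9 and 20.9 ppm in fl/fl and rose by 1.12 (limma adjusted p = 0.0207). Herpud1, a reticulum stress protein, fell, with 131, 153 and 253 ppm in CS-Mpc2-/-, against 307, 409.9 and 208 ppm in fl/fl (log2 difference -1.04, limma adjusted p = 0.0149), with CS-Mpc2-/- replicate 3 above fl/fl replicate 3. Of 17 measured mitochondrial folding and proteolysis genes 1 was called higher and 0 lower without fl/fl replicate 3, against the same shares of all genes. This was Afg3l2, a subunit of the matrix AAA protease (log2 difference 0.63, limma adjusted p = 0.0246). It had 292, 281 and 246 ppm in CS-Mpc2-/-, against 174, 176 and 265 ppm in fl/fl. Its groups overlapped through fl/fl replicate 3, and it did not pass with all 6 libraries (limma adjusted p = 0.358). Grpel2 and Pam16, which act with Hspa9, had log2 differences of 0.44 ± 0.21 and 0.71 ± 0.32 (SE) with all 6 libraries and did not pass in either fit.

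In the authors' deposited table, whose p-values are unadjusted, 3 chaperone genes were higher and 3 lower at p under 0.05 (4% each, against 3.61% and 2.57% of all genes). The authors' deposited table gave ratios of CS-Mpc2-/- to fl/fl means of 2.81 for Hspa1l, 1.84 for Hsp90aa1 and 1.44 for Hspb2, with p-values of 0.0148, 0.0470 and 0.0457. It gave 0.598 for Dnajb5, 0.717 for Dnajc30 and 0.906 for Bag3, with p-values of 0.0251, 0.00297 and 0.0423 in the authors' deposited table.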

How the data were processed

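RNA was measured in 6 left ventricle libraries, 3 per genotype, each from a pool of 2 hearts and, per the labels' protocols, sequenced on the Ion Torrent Proton after removal of ribosomal RNA. Judged by their values, the authors' deposited columns hold a coverage signal at a near common total (261.1 to 261.3, in 1000000 units). At least 99.9917% of them are whole multiples of a library's smallest step (tolerance 0.01), so they behave as bases and counts of reads were not recovered. The deposited ratio of group means and the deposited unadjusted p-value are the authors' own. The submitters' processing notes name mm10. The sources used here give no aligner, counting method or strand setting.

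Values were divided by the library total (ppm), transformed as log2(ppm + 1) and kept at a mean of at least 1 ppm, which removed 0 of 12072 genes. Fold changes of low genes are understated by the added 1. The two-sided test was limma 3.58.1 (R 4.3.3, group as the only term, eBayes with intensity trend). It was adjusted after Benjamini-Hochberg over the whole table at 0.05, and was tested on simulated data. There it recovered 29% of genes set 2-fold apart and 80% of those set 4-fold apart with all 6 libraries, with 4 false calls. Without fl/fl replicate 3 it recovered 6% and 56%, with 0 false calls. Most genes set 2-fold apart in those data were thus missed in both fits. Whether these shares hold for the measured libraries, or where a library is left out for its position, was not tested. For a single member the exact permutation test (20 arrangements) has p = 0.1 as its smallest value, which 11 of the 75 reached. Positions and lengths are from GENCODE M21 (99.4% of genes, all 75 members). Members, lists and tests were chosen with earlier results of these data known. Members were named by a rule: the 2 highest of each class, the 8 smallest unadjusted p in each direction, those past the threshold without fl/fl replicate 3, and Hspa1a and Hspa1b; of related genes, 3 per list, Hsf1 and Cryab. Hspe1, Hsph1, Hspb1, Hspb6, Dnajb1, Dnajc3, Cct2, Cct8 and Bag3, the ends of ranges and the ratios were chosen after their values were seen. Alternatives were 17 planned and 2 added settings. Replicate numbers did not pair the libraries (correlations of deviations 0.07, -0.04 and -0.07).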

Additional observations from a re-analysis of the deposited data

How the results depend on the processing

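The counts of 0 chaperone genes higher and 0 lower held under the scaling, trend, robust, filter, pseudocount, length and replicate block settings. With the replicate number as a block limma called 0 and 0 chaperone genes, and 0 and 0 of all genes. With 1 library left out the chaperone counts ranged from 0 to 7 higher and 0 to 1 lower, and those of all genes from 0 to 786 and from 0 to 531, and of these settings only that without fl/fl replicate 3 gave calls. Without replicate 3 of both groups 7 chaperone genes were higher and 3 lower, of 874 and 640 in all. The remaining settings were chosen after the data were seen. Without fl/fl replicate 3 and CS-Mpc2-/- replicate 1 the counts were 3 and 0, of 355 and 231, with fewer libraries fitted. Without fl/fl replicate 3 and with the length trend removed they were 5 and 3, of 666 and 601. Where a library is left out, a group of 2 is assumed to vary as the other does.

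Over all settings the median log2 difference was -0.011 to 0.24 for small heat shock proteins, 0.25 to 0.53 for cytosolic Hsp70, Hsp90 and Hsp110, 0.044 to 0.14 for J-proteins, 0.11 to 0.33 for CCT and -0.20 to 0.017 for mitochondrial genes. With 1 library, or fl/fl replicate 3 and CS-Mpc2-/- replicate 1, left out it was -0.029 to 0.13 for BAG genes and -0.014 to 0.27 for reticulum genes. The BAG median was -0.079 without fl/fl replicate 3 with the length trend removed. The sign changed under at least 1 setting for 23 of the 75 genes. Over all settings the log2 difference was -0.36 to 0.30 for Hspb1, -0.064 to 0.21 for Hspb6, -0.23 to 0.35 for Dnajb1 and -0.27 to 0.21 for Dnajb6. Of the genes named by the rule the sign changed for Hspb7, Hsp90b1, Hspa9, Dnajc4 and Hspbap1. Hspb7 was at -0.0060 with upper quartile scaling, -0.0042 with median-of-ratios scaling and -0.0036 with the length trend removed. Dnajc4 was at -0.033 and -0.031 with these scalings, -0.0057 with a pseudocount of 5 ppm, and -0.15 with the length trend removed, or -0.15 there without fl/fl replicate 3. With 1 library, or fl/fl replicate 3 and CS-Mpc2-/- replicate 1, left out the log2 difference was -0.14 to 0.19 for Hspb7, -0.18 to 0.13 for Hsp90b1, -0.091 to 0.065 for Hspa9, -0.30 to 0.26 for Dnajc4 and -0.20 to 0.20 for Hspbap1, and 0.10 for Hspbap1 without replicate 3 of both groups. The cause was not tested.

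In fl/fl replicate 1, the library of least depth, Hspa1l rested on 411 coverage steps, Hspa1b on 666 and Hspa1a on 768.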

Other observations

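In Dnajc30, chosen after its values were seen, the CS-Mpc2-/- libraries had 17.5, 14.9 and 15.9 ppm, while fl/fl replicate 3 (23.3 ppm) lay with the other fl/fl libraries (21.1 and 23.0 ppm).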
